A study of Homo sapiens with 12 samples.

Results

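The measurement described here is the departure from additive effects of a drug pair, taken gene by gene in SKBR3 cells. SKBR3 is an established breast cancer cell line with an amplified ERBB2 (HER2) gene. For each gene the mean log2 level with GSK126 alone was subtracted from that with GSK126 plus lapatinib, and the lapatinib change without GSK126 was subtracted from the result. This interaction is 0 when the log2 changes of the drugs add up. It is positive when the level with both drugs lies above the level that simple addition gives, and negative when it lies below. All 12 libraries entered every value, and 14179 of the 22170 measured genes passed a filter on low values and were tested.

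Lapatinib blocks the kinases of EGFR and HER2, and in HER2-driven cells this reduces signalling through the RAS-ERK and PI3K-AKT pathways and slows entry into the cell cycle. GSK126 blocks EZH2, the methyltransferase subunit of the repressive complex PRC2, so that genes kept silent by methylation of histone H3 at lysine 27 can become active over several cell divisions. Interactions on the log scale compare proportional changes, so a gene can be additive on the log scale and not on the linear scale.

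The 4 groups had 3 libraries each. GSK126 + lapatinib cells received 5 µM GSK126 for 7 days and 100 nM lapatinib for the last 24 h. GSK126 cells received the same GSK126 without lapatinib, lapatinib cells received 100 nM lapatinib for 24 h after DMSO pre-treatment, and DMSO cells received vehicle throughout. All cells were split on day -3, seeded on day -1 and harvested on day 1. Whether replicate libraries stem from separate cultures is not given in the labels, so every p-value reflects library-to-library spread alone, which may be technical.

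Depth ran from 18.0 to 30.5 M counted reads. The first GSK126 + lapatinib library was the shallowest, and 21669 genes had reads there, against 15059 to 17338 elsewhere. Within groups, the median gene had a log2 SD of 0.203 with both drugs, 0.432 with GSK126, 0.116 with lapatinib and 0.243 with DMSO. The limma SE given below pools these spreads for each gene, so it is the same for the lapatinib change with and without GSK126. It can therefore be too small for changes that involve the GSK126 libraries and too large for lapatinib against DMSO. Keratins KRT8, KRT18 and KRT19, EPCAM, ERBB2 and GRB7 were high in all groups, while CDH1 (E-cadherin, which SKBR3 is known to lack) averaged 4.69 normalized reads with both drugs, 0 with GSK126, 0.938 with lapatinib and 0.817 with DMSO. Summed endothelial markers ran from 1556 to 1838 with both drugs, 1620 to 2323 with GSK126, 619 to 725 with lapatinib and 716 to 936.5 with DMSO, carried mainly by CDH5 and ESAM, while PECAM1 averaged under 3 in every group. Summed leukocyte markers ran from 1175 to 1423 with both drugs, 796 to 1382 with GSK126, 335 to 424 with lapatinib and 376 to 463 with DMSO, carried mainly by CD68 and CSF1R, while PTPRC averaged 6.64, 0.511, 0.326 and 0.329 in the same order. No tested member of either list was called in the interaction, and their part in the results was not tested. In bulk RNA, fewer cells of a kind and less RNA per cell cannot be told apart.

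The proportions of the spike-in transcripts among themselves, an outside standard with no description in the labels, were clustered and cut into 3 compositions. The number 3 was fixed by the procedure, so the libraries would have been divided into 3 in any case. The first held all DMSO and lapatinib libraries and GSK126 + lapatinib libraries 2 and 3. GSK126 libraries 2 and 3 shared another with GSK126 + lapatinib library 1, and GSK126 library 1 stood alone. No composition held all 4 groups, so no interaction could be computed within a composition. All GSK126 libraries lay outside the composition of the DMSO libraries, and only the libraries with both drugs, which fell on either side, separate GSK126 treatment from composition. With composition as a term in the limma fit, GPX3 kept an interaction of 2.66 (adjusted p = 0.00668) and was the only gene called. That fit gives GSK126 library 1 a term of its own, so this library adds nothing to the interaction. The other term rests on GSK126 + lapatinib library 1, the shallowest, against libraries 2 and 3 of that group.

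Most genes lay close to additivity. The median interaction was 0.02, and the 5th and 95th percentiles were -0.83 and 0.88 on the log2 scale. Scaling to the spike-in total instead moved the median of all genes to -0.48, so signs here are relative to the other genes. An adjusted p under 0.05 (limma, Benjamini-Hochberg over all genes) was reached by 3 genes, 0.0212% of those tested, with 2 above (0.0141%) and 1 below (0.00705%) the additive level. At an unadjusted p under 0.05 there were 836 genes, 5.9% of those tested, 366 above (2.58%) and 470 below (3.31%). The median 95% interval reached 0.736 to either side of the estimate, and 7039 genes (49.6%) had an interval wholly within 1 of 0. For the other genes the interval reached past 1 log2 unit on at least one side. DESeq2 on the recovered reads called 66 genes above and 49 below, and edgeR called 2 and 1. Elsewhere in the text, called means by limma unless another method is named. For comparison, limma called 18.2% of the tested genes when lapatinib was added to GSK126 (8.48% higher and 9.71% lower), and 28% when it was added to DMSO (13.7% higher and 14.3% lower). Adding GSK126 gave 17.9% on top of lapatinib (11.5% higher and 6.35% lower) and 14.6% on DMSO (10.7% higher and 3.93% lower). These comparisons share libraries with each other and with the interaction.

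**Figure D1:**
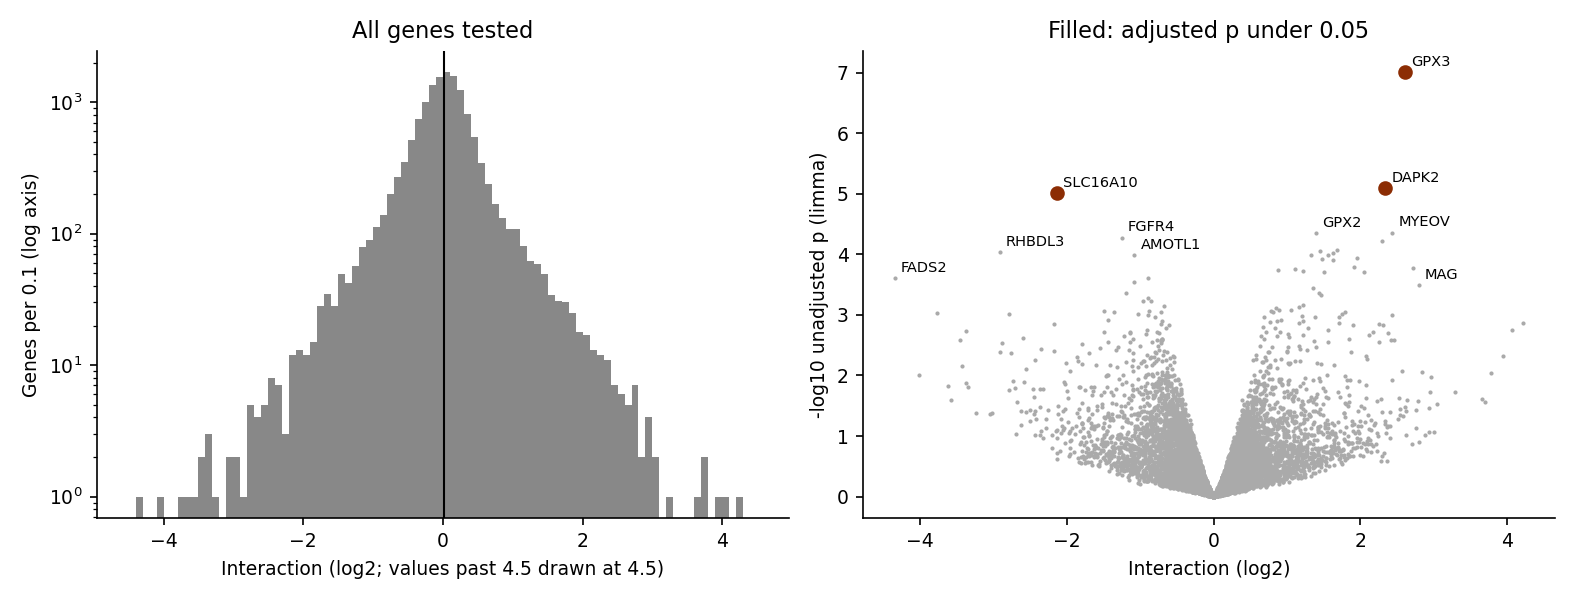
Left, number of tested genes per 0.1 of interaction (log2), on a log axis. Right, interaction (log2) on the horizontal axis against -log10 of the unadjusted limma p, one point per gene, with the 3 genes at an adjusted p under 0.05 filled (GPX3 at 2.61, DAPK2 at 2.34 and SLC16A10 at -2.13); most genes sit around the median of 0.02.

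The 3 called genes encode unrelated proteins. GPX3 is a secreted, selenium-containing glutathione peroxidase that reduces peroxides. DAPK2 is a calmodulin-dependent protein kinase with roles in cell death and autophagy. SLC16A10 is a membrane transporter of aromatic amino acids and thyroid hormones. The 250 bases upstream of their starts are printed because the PRC2 complex inhibited here is known to favour DNA rich in CG dinucleotides, and GPX2, a related peroxidase with the same direction, is set beside them. The sequences are from RefSeq on GRCh38.p14, given 5′ to 3′ on the strand of the gene, with CG dinucleotides in capitals. The deposited values were made on hg19 and carry no coordinates. The windows are chr5:151020341-151020590 (plus strand) for GPX3, chr15:64046486-64046735 (minus strand) for DAPK2, chr6:111087253-111087502 (plus strand) for SLC16A10 and chr14:64942746-64942995 (minus strand) for GPX2.
GPX3: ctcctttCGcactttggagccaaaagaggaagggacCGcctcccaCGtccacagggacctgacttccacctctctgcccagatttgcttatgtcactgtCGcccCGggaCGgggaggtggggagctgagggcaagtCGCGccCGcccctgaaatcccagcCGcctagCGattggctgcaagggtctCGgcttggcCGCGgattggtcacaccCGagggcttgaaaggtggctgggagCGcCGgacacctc
DAPK2: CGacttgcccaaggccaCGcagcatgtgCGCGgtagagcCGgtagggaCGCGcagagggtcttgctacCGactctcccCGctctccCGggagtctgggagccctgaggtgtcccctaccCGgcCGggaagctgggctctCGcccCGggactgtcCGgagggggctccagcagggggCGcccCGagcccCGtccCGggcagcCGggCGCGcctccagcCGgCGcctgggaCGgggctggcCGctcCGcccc
SLC16A10: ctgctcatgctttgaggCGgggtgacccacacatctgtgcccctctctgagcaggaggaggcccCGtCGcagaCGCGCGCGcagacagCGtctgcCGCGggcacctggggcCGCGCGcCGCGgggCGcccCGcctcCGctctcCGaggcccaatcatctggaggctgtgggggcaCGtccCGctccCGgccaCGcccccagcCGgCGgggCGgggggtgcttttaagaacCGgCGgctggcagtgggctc
GPX2: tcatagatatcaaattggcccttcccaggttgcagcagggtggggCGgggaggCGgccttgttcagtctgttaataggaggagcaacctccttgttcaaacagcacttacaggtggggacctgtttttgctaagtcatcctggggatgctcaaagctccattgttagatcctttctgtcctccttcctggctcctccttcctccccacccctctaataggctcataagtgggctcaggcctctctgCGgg
The dinucleotide CG, which reads the same on both strands, occurred 17 times upstream of GPX3, 27 times upstream of DAPK2, 28 times upstream of SLC16A10 and 3 times upstream of GPX2. Over all 35116 promoters of the table the median was 11, with quartiles of 3 and 23. At most as many CG dinucleotides were found in 63.2% of promoters for GPX3, 84.1% for DAPK2, 85.9% for SLC16A10 and 29.3% for GPX2. The CG-rich windows thus included both a gene above and a gene below the additive level.

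GPX3 had the smallest interaction p. It had 6347, 6420.4 and 7466 normalized reads with both drugs, 1468, 983 and 1215 with GSK126, 544, 477 and 465 with lapatinib and 651, 511 and 473 with DMSO. Every library with both drugs lay above every other library, while the lapatinib and DMSO libraries overlapped. Lapatinib alone gave a log2 change of -0.13 ± 0.17 (SE; limma adjusted p = 0.614), whereas on top of GSK126 GPX3 rose by 2.48 ± 0.17 (adjusted p = 1.33e-06). Simple addition would give 1104 normalized reads with both drugs, against the observed geometric mean of 6726. The interaction was 2.61 ± 0.24 (95% interval 2.08 to 3.13, adjusted p = 0.00138). It lay between 2.46 and 2.75 when any library was left out, and was called each time.

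DAPK2 moved in opposite directions under lapatinib with and without GSK126. It had 207, 212 and 266 normalized reads with both drugs, 109.5, 99.7 and 134 with GSK126, 25.5, 24.5 and 20.6 with lapatinib and 74.8, 51.4 and 59.8 with DMSO. No groups overlapped, and the order was both drugs, GSK126, DMSO and lapatinib. It rose by 0.99 ± 0.23 on top of GSK126 (limma adjusted p = 0.0108) and fell by 1.35 ± 0.23 with lapatinib alone (adjusted p = 0.000973). The interaction was 2.34 ± 0.33 (adjusted p = 0.0466), with 227 reads observed against 44 if the changes had added. With libraries left out in turn the estimate stayed between 2.20 and 2.46, but it was called in only 1 of the 12 fits, without GSK126 library 1, and the adjusted p reached 0.254 without lapatinib library 3.

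SLC16A10 lay below the additive level. It had 31.1, 25.1 and 20.2 normalized reads with both drugs, 77.8, 101 and 98.1 with GSK126, 268, 226 and 277 with lapatinib and 219, 210.5 and 192 with DMSO. The libraries with both drugs were lowest, and those with lapatinib alone were highest, with no overlap between groups. It fell by 1.83 ± 0.21 on top of GSK126 (limma adjusted p = 9.06e-05), while lapatinib alone gave 0.30 ± 0.21 (adjusted p = 0.313). The interaction was -2.13 ± 0.30 (adjusted p = 0.0466), and 25.1 reads were observed against 114 under addition. Left-out fits gave -2.28 to -1.99 and called it in 2 of 12, without GSK126 library 1 and without GSK126 + lapatinib library 1.

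**Figure D2:**
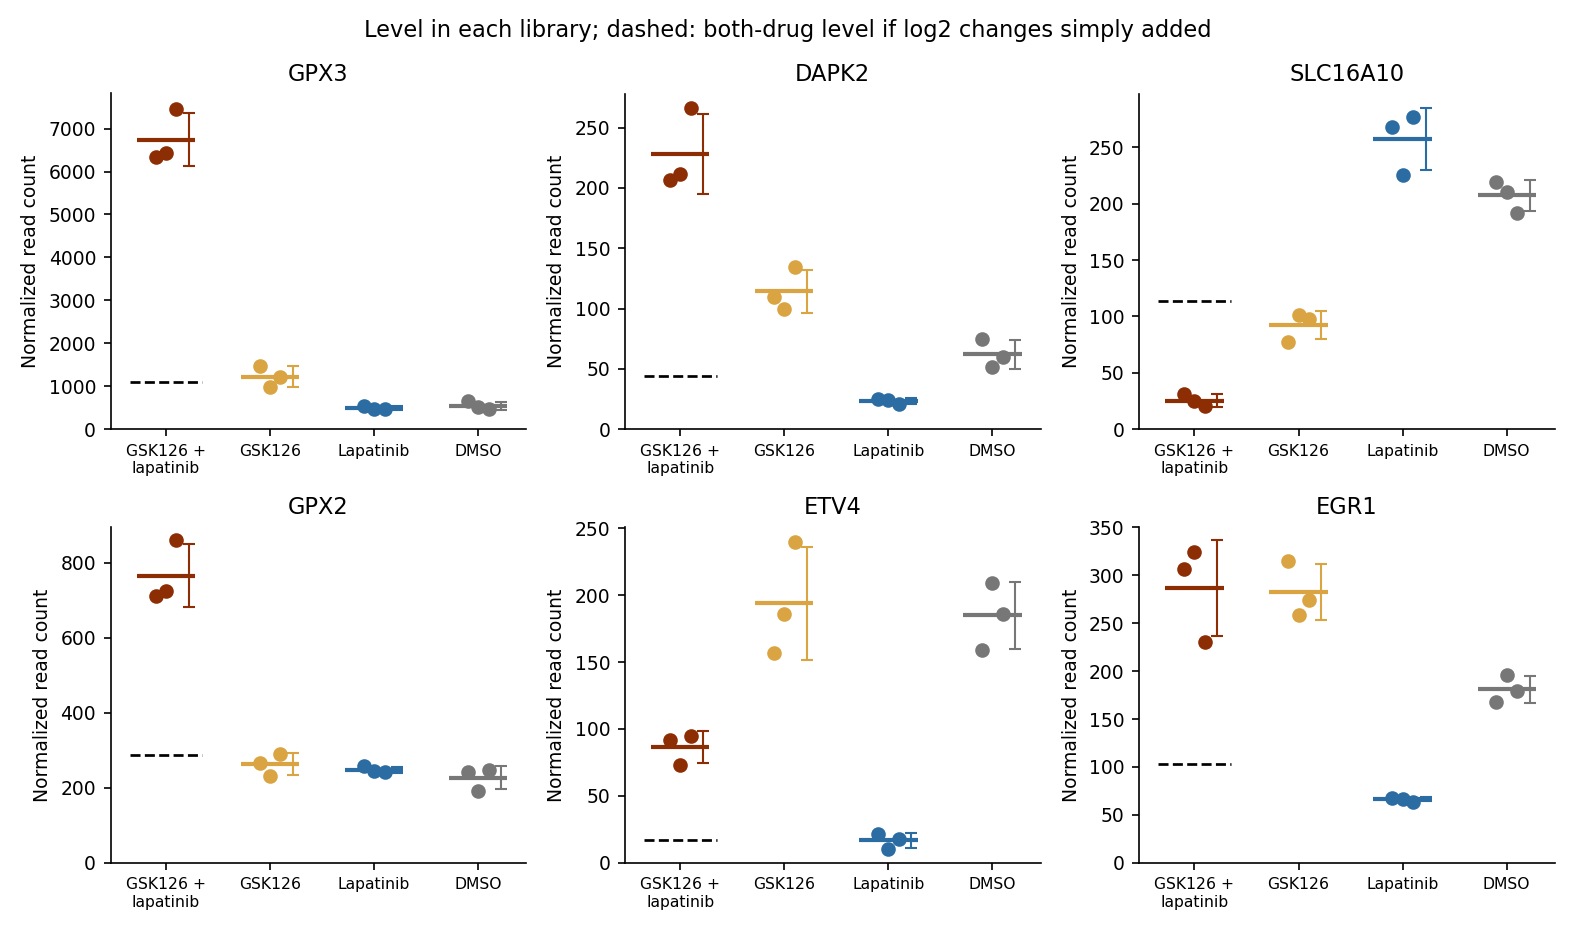
Normalized read counts (vertical axis, from 0) in each library of the 4 groups for the 3 called genes and for GPX2, ETV4 and EGR1. Points are libraries, solid bars group means with SD (n = 3), and the dashed line the both-drug level if the log2 changes added (1104 for GPX3 and 114 for SLC16A10); the GSK126 + lapatinib points lie above the dashed line in every panel except SLC16A10.

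The next genes by p did not pass the adjustment in limma or edgeR, with limma adjusted p from 0.102 upward. The 30 genes of smallest p with a mean of at least 50 in their highest group are described by their values, since their choice rests on the interaction itself. All 30 were called by DESeq2, and 3 by edgeR. Their interactions ran from 0.88 to 2.79 in 22 genes and from -4.34 to -0.90 in 8, with the same sign in every left-out fit and every scaling. As the same libraries chose the genes, neither the DESeq2 calls nor the kept signs are separate support. Of the 22 above the additive level, 17 fell with lapatinib alone and 5 were not called there, while on top of GSK126 3 fell, 9 rose and 10 were not called. Of the 8 below it, 5 rose with lapatinib alone and 3 were not called. The lapatinib change enters the interaction with a minus sign, so this pattern is in part fixed by the choice of genes.

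**Figure D3:**
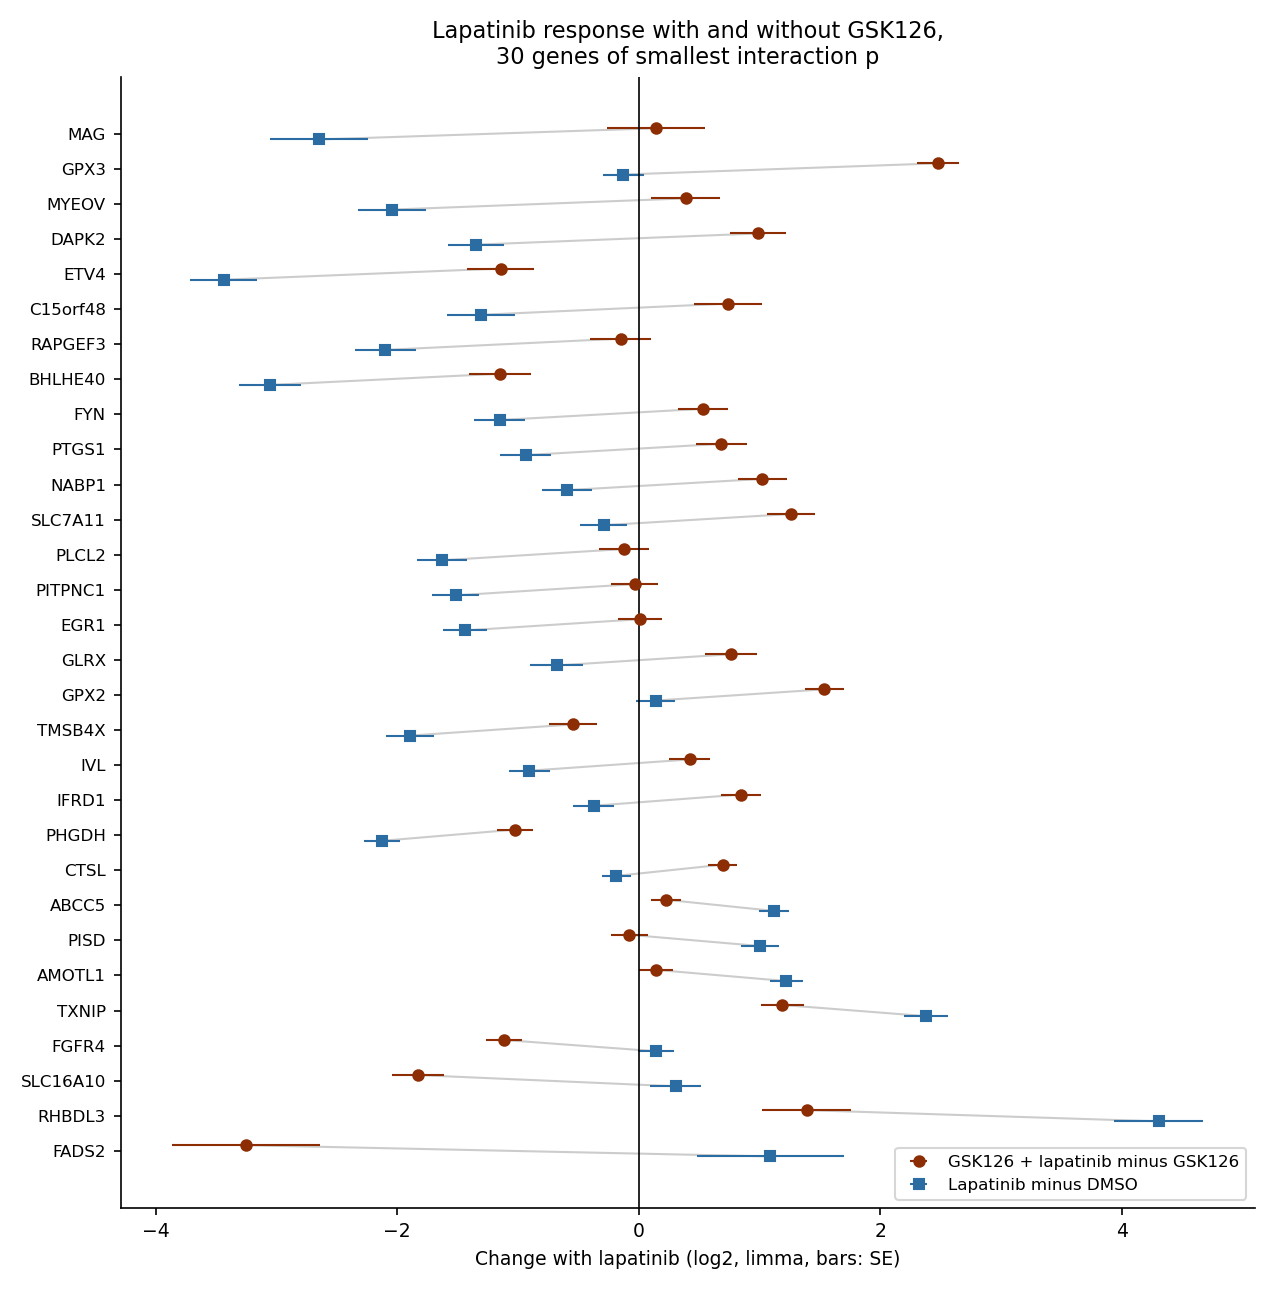
Log2 change with lapatinib in the 30 genes of smallest interaction p (rows), on top of GSK126 (circles) and against DMSO (squares), with SE from limma and a line joining the pair. Circles lie right of squares in 22 genes and left of them in 8, from MAG at the top to FADS2 at the bottom, and most circles of the upper 22 lie nearer to 0 than their squares or on the other side of it.

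GPX3 and GPX2, both glutathione peroxidases, were among the genes of smallest p. The list of NRF2 targets and glutathione enzymes had 26 measured and 24 tested members. It had a median interaction of 0.17 (-0.33 with spike-in scaling), and GPX3 was called by limma. DESeq2 called 4 members, all above the additive level, against 66 of all 14179 genes. At an unadjusted p under 0.05 there were 4, all above, against 2.58% of all genes tested. GPX2, an epithelial glutathione peroxidase, had 711, 724 and 862 normalized reads with both drugs, 266, 232 and 291 with GSK126, 258, 245 and 243 with lapatinib and 243, 191 and 248 with DMSO. The both-drug libraries stood apart while the other 3 groups overlapped, and neither drug alone gave a called change (limma adjusted p = 0.451 for GSK126 and 0.557 for lapatinib). Lapatinib on top of GSK126 raised it by 1.54 ± 0.16 (adjusted p = 3.83e-05). Its interaction was 1.40 ± 0.23 (adjusted p = 0.102). SLC7A11, the cystine transporter that feeds glutathione synthesis, had 359.7, 377 and 445 reads with both drugs, 182, 183 and 131 with GSK126, 155, 164 and 187 with lapatinib and 253, 183 and 189 with DMSO. It was again the both-drug libraries that lay above all others, with an interaction of 1.55 ± 0.28 (adjusted p = 0.102). SLC7A11 also has the highest interaction in the ATF4 list described below, so both lists count it. HMOX1, which breaks down haem, averaged 1125 ± 99.5 reads with both drugs, 883 ± 127 with GSK126, 354 ± 22.6 with lapatinib and 498 ± 48.7 with DMSO (SD, n = 3), an interaction of 0.84 ± 0.21 (adjusted p = 0.301). The list was not uniform: 17 of the 24 tested members had an interaction above 0, and the lowest had -1.695. NQO1 and GCLM, classical NRF2 targets, had interactions of 0.37 and 0.28 at adjusted p of 0.918 and 0.974. GLRX, a glutaredoxin outside the list, had an interaction of 1.44 ± 0.31 (adjusted p = 0.199).

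No gene of the ERK output and feedback list was called in the interaction by limma. DESeq2 called 4 members, all above the additive level, against 66 of all 14179 genes. The list (19 measured, 18 tested) had a median interaction of 0.76 (0.25 with spike-in scaling). At an unadjusted p under 0.05 there were 8 members, all positive, against 2.58% above in all genes. The lists were written with earlier results of these data known, so such shares are not separate support. On top of GSK126 lapatinib lowered 2 of the 18 and raised 1, against 9.71% and 8.48% of all genes, and alone it lowered 8 and raised none, against 14.3% and 13.7%. The medians were -0.12 on top of GSK126 and -1.18 for lapatinib alone. ETV4, an ETS transcription factor induced by ERK signalling, had 92.1, 72.8 and 94.5 normalized reads with both drugs, 157, 186 and 239.5 with GSK126, 21.5, 10.6 and 17.8 with lapatinib and 159, 209 and 186 with DMSO. It fell in both settings, by 1.14 ± 0.28 on top of GSK126 (adjusted p = 0.013) and by 3.44 ± 0.28 with lapatinib alone (adjusted p = 2.46e-06), and the both-drug libraries lay between the lapatinib libraries and the others. The interaction was 2.29 ± 0.39 (adjusted p = 0.102). SPRY4, a feedback inhibitor of receptor tyrosine kinase signalling, had 147, 142 and 97.3 reads with both drugs, 70.1, 212 and 192 with GSK126, 34.3, 24.5 and 36.6 with lapatinib and 125, 268 and 217 with DMSO. Its GSK126 libraries spread widely, and the interaction was 2.43 ± 0.57 (adjusted p = 0.263). The phosphatase gene DUSP5 had 1.05 ± 0.24 (adjusted p = 0.263) and CCND1, which encodes the G1 cyclin D1, 0.74 ± 0.21 (adjusted p = 0.397). MYEOV, a neighbour of CCND1 that was found overexpressed in myeloma, had the highest interaction of the list, 2.43 ± 0.40 (adjusted p = 0.102). It had 217 ± 13.9 reads with both drugs, 173 ± 65.7 with GSK126, 29.7 ± 9.02 with lapatinib and 123 ± 18.3 with DMSO. DUSP6, the ERK-specific phosphatase, averaged 22.9 reads with both drugs, 20 with GSK126, 14.2 with lapatinib and 21.7 with DMSO. At these low levels its interaction of 0.76 ± 0.52 (adjusted p = 0.968) was at the list median but had a wide SE. By contrast IER3 had 0.049 ± 0.23.

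Immediate early genes, which respond within minutes to growth factors, had a median interaction of 0.36 over 21 tested of 23 measured members (-0.14 with spike-in scaling and 0.24 without GSK126 library 2). Of these, 7 were above and 2 below the additive level at an unadjusted p under 0.05 (2.58% and 3.31% of all genes). None was called by limma, while DESeq2 called 3, all above the additive level, against 66 of all 14179 genes. EGR1 had 306, 324 and 230.3 normalized reads with both drugs, 315, 258 and 274 with GSK126, 67.6, 67.1 and 63.8 with lapatinib and 168, 196 and 179 with DMSO. The both-drug and GSK126 libraries overlapped and all lay above DMSO, while the lapatinib libraries lay below it. EGR1 fell by 1.44 ± 0.18 with lapatinib alone (limma adjusted p = 0.000102) and changed by 0.01 ± 0.18 on top of GSK126 (adjusted p = 0.971), an interaction of 1.45 ± 0.26 (adjusted p = 0.102). FOS, a subunit of the factor AP-1, had 119, 126 and 85.8 reads with both drugs, 31.8, 79 and 74.2 with GSK126, 7.83, 12.8 and 8.45 with lapatinib and 27, 17.8 and 34.2 with DMSO. Its interaction of 2.25 ± 0.56 had a limma adjusted p of 0.282 and a DESeq2 adjusted p of 0.0312. JUN and NR4A1 had 1.00 ± 0.29 and 0.69 ± 0.18 (adjusted p = 0.397 and 0.334). The members below the additive level were FOSB (-1.39 ± 0.52) and FOSL2 (-0.58 ± 0.26), both of which rose with lapatinib alone.

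Epidermal differentiation genes had the highest list median, 1.03, but only 11 of 25 measured members passed the filter. A member could pass through a single group in which it was high. None was called by limma, while DESeq2 called 3, all above the additive level, against 66 of all 14179 genes. At an unadjusted p under 0.05, 6 were above and none below (2.58% and 3.31% of all genes). Involucrin (IVL), a protein of the cornified envelope, had 2421, 2526 and 2731 normalized reads with both drugs, 1861, 1823 and 2048 with GSK126, 192, 218 and 163 with lapatinib and 396, 409 and 279.6 with DMSO. The groups did not overlap. IVL rose by 2.42 with GSK126 (limma adjusted p = 1.72e-06) and fell by 0.91 ± 0.17 with lapatinib alone (adjusted p = 0.00179), but gave 0.42 ± 0.17 on top of GSK126 (adjusted p = 0.103), an interaction of 1.33 ± 0.24 (adjusted p = 0.102). The alarmin genes S100A8 and S100A9, whose products pair as calprotectin, had interactions of 1.75 ± 0.41 and 1.56 ± 0.40 (adjusted p = 0.263 and 0.307). S100A8 averaged 3065 ± 800.1 reads with both drugs, 4893 ± 2174 with GSK126, 160.3 ± 28.1 with lapatinib and 842 ± 218 with DMSO. CALML5 and KRT13 had 2.09 ± 0.63 and 1.03 ± 0.32 (adjusted p = 0.458 and 0.483). KRT10, TGM1, CNFN and KRT4 had interactions between -0.35 and 0.36.

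Targets of ATF4, the factor of the amino acid and endoplasmic reticulum stress response, had a median interaction of 0.49 over all 24 members (-0.0089 with spike-in scaling). At an unadjusted p under 0.05, 10 were above the additive level and none below (2.58% and 3.31% of all genes). None was called by limma, while DESeq2 called 4, all above the additive level, against 66 of all 14179 genes. The simple changes within the list ran both ways: 5 rose and 3 fell on top of GSK126 (8.48% and 9.71% of all genes), while 2 rose and 5 fell with lapatinib alone (13.7% and 14.3% of all genes). CHAC1, which degrades glutathione and is a sensitive ATF4 target, had 1788, 1747 and 1821 normalized reads with both drugs, 195, 216 and 308 with GSK126, 233, 238 and 254 with lapatinib and 76, 64.2 and 54.4 with DMSO. Each drug raised it alone, by 1.85 for GSK126 and 1.89 for lapatinib (limma adjusted p = 2.89e-05 and 1.79e-05), and the both-drug libraries lay above all others. The interaction was 1.02 ± 0.27 (adjusted p = 0.334), with 1785 reads observed against 877 under addition. PHGDH, the entry enzyme of serine synthesis, had 1037, 1120.3 and 1325 reads with both drugs, 2569.5, 2033 and 2471 with GSK126, 677, 644 and 618 with lapatinib and 3279, 2515 and 2742 with DMSO. It fell by 1.02 ± 0.15 on top of GSK126 and by 2.13 ± 0.15 with lapatinib alone, an interaction of 1.11 ± 0.21 (adjusted p = 0.115). Asparagine synthetase (ASNS) had 0.65 ± 0.17 (adjusted p = 0.327) and CEBPB 0.69 ± 0.16 (adjusted p = 0.264). ATF4 itself had 0.40 ± 0.21 (adjusted p = 0.904), and MTHFD2 had -0.44 ± 0.22.

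Other genes above the additive level included both kinds of pattern. FYN, a SRC-family kinase, averaged 171 ± 16.6 normalized reads with both drugs, 118 ± 8.68 with GSK126, 28.6 ± 3.65 with lapatinib and 64.9 ± 8.25 with DMSO, an interaction of 1.68 ± 0.30 (adjusted p = 0.102). PITPNC1, a phosphatidylinositol transfer protein, fell with lapatinib alone (60.7, 53.2 and 64.8 with lapatinib, against 213, 178 and 133 with DMSO) but had 917, 925 and 868 with both drugs, against 772, 1027 and 996 with GSK126. The PITPNC1 interaction was 1.48 ± 0.27 (adjusted p = 0.102). PLCL2 had the same form, as did MAG, with 158, 165 and 173 reads with both drugs, 156, 113 and 189 with GSK126, 1.96, 7.45 and 5.63 with lapatinib and 45.4, 20.8 and 39.5 with DMSO. The MAG interaction of 2.79 was 2.93 with a pseudocount of 0.5 and 2.13 with 5. In these 3 genes the lapatinib decrease seen against DMSO was not called on top of GSK126 (adjusted p from 0.703 to 0.917). CTSL, a lysosomal protease, differed: it had 4724 ± 244 reads with both drugs, 2926 ± 331 with GSK126, 1923 ± 89.9 with lapatinib and 2186 ± 25.3 with DMSO, and lapatinib raised it by 0.70 ± 0.12 on top of GSK126 (adjusted p = 0.0016) and gave -0.19 ± 0.12 alone (adjusted p = 0.269). Its interaction was 0.88 ± 0.17 (adjusted p = 0.115). BHLHE40, a transcriptional repressor, had 526 ± 60.7 reads with both drugs, 1186 ± 290.0 with GSK126, 77.7 ± 22.5 with lapatinib and 643 ± 136 with DMSO. Its log2 interaction was 1.91 ± 0.36 (adjusted p = 0.115), while the difference of differences on the linear scale was negative.

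Below the additive level, a first kind of gene rose with lapatinib alone and had a smaller estimate on top of GSK126. TXNIP, an inhibitor of thioredoxin that responds to glucose and FOXO factors, had 7107, 7231 and 6345 normalized reads with both drugs, 2229, 3700.4 and 3343 with GSK126, 7508, 7021 and 7358 with lapatinib and 1194, 1579 and 1460.0 with DMSO. Both-drug and lapatinib libraries overlapped, above all GSK126 libraries, which lay above DMSO. It rose by 1.19 ± 0.18 on top of GSK126 (limma adjusted p = 0.000593) and by 2.38 ± 0.18 with lapatinib alone (adjusted p = 1.46e-06), an interaction of -1.19 ± 0.25 (adjusted p = 0.199). AMOTL1, an angiomotin of the Hippo pathway, had 3457, 3502 and 3187 reads with both drugs, 3025, 3600.0 and 2642 with GSK126, 6476, 6506 and 7044 with lapatinib and 2539.8, 3106 and 2957 with DMSO. Only the lapatinib libraries stood apart, and the interaction was -1.08 ± 0.20 (adjusted p = 0.102). The transporter gene ABCC5 (-0.90 ± 0.18, adjusted p = 0.136) and PISD, which makes phosphatidylethanolamine in mitochondria (-1.08 ± 0.22, adjusted p = 0.152), were likewise highest with lapatinib alone. RHBDL3, a rhomboid protease homologue near 0 in DMSO, had 144, 164 and 144 reads with both drugs, 66.8, 50.6 and 53.9 with GSK126, 23.5, 18.1 and 31.9 with lapatinib and 0, 0.988 and 0 with DMSO. It rose by 1.39 ± 0.37 on top of GSK126 (adjusted p = 0.0205) and by 4.31 ± 0.37 with lapatinib alone (adjusted p = 3.88e-06). Its interaction of -2.91 ± 0.52 (adjusted p = 0.102) was -3.68 with a pseudocount of 0.5 and -1.12 with 5, so its size is set by the pseudocount. On the linear scale its difference of differences was positive.

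FOXO factors and targets, which are active when AKT is inhibited, had the lowest list median, -0.34 over 24 tested of 25 measured members. None was called by limma, while DESeq2 called 3, all below the additive level, against 49 of all 14179 genes. At an unadjusted p under 0.05, 5 were below and 1 above the additive level. Of all genes tested, 3.31% were below and 2.58% above at that p. The median was -0.16 without GSK126 library 2, where the epithelial and HER2 amplicon markers had -0.36, so its place as the lowest rests on that library. Of the 24, 11 rose on top of GSK126 (8.48% of all genes) and 16 with lapatinib alone (13.7% of all genes), and none fell in either (9.71% and 14.3% of all genes). FBXO32, a ubiquitin ligase subunit, had 14716, 14637 and 13637 normalized reads with both drugs, 4812, 5010.4 and 5234 with GSK126, 4883, 4685 and 4920.2 with lapatinib and 1082, 1104 and 1131 with DMSO. Each drug raised it and both together raised it further, but to 14322 reads (geometric mean) against 21891 under addition, an interaction of -0.61 ± 0.15 (adjusted p = 0.282). PIK3IP1, an inhibitor of PI3K, had -0.56 ± 0.22 and TSC22D3 -0.54 ± 0.16 (adjusted p = 0.746 and 0.442). PDK4 had the opposite sign, 1.25 ± 0.65, and DDIT4, which is also an ATF4 target, 0.67 ± 0.20. Milk and secretory genes held both signs. MUC1, a mucin, and ELF5, a factor of alveolar differentiation, had -1.33 ± 0.38 and -1.10 ± 0.32 (adjusted p = 0.397 and 0.401). SCGB2A2 (mammaglobin) had 0.89 ± 0.20 (adjusted p = 0.263), with 2186 ± 184 reads with both drugs, 548 ± 77.9 with GSK126, 555 ± 15.3 with lapatinib and 257 ± 17.6 with DMSO.

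A second kind of gene below the additive level fell on top of GSK126 while lapatinib alone was not called. FGFR4, a fibroblast growth factor receptor, had 543, 566 and 522 normalized reads with both drugs, 1244, 965 and 1359 with GSK126, 2799.7, 2683 and 2457 with lapatinib and 2618, 2495 and 2111 with DMSO. The both-drug libraries were lowest, the GSK126 libraries lay between them and the rest, and lapatinib and DMSO overlapped. FGFR4 fell by 1.11 ± 0.15 on top of GSK126 (limma adjusted p = 0.000248) and gave 0.14 ± 0.15 with lapatinib alone (adjusted p = 0.514), an interaction of -1.25 ± 0.21 (adjusted p = 0.102). FADS2, a fatty acid desaturase, had 16.2, 5.66 and 12.5 reads with both drugs, 88.7, 90.5 and 163 with GSK126, 15.7, 7.45 and 15 with lapatinib and 1.23, 8.89 and 9.61 with DMSO. GSK126 raised it by 4.16 (adjusted p = 0.000446) and it fell by 3.25 ± 0.61 on top of GSK126 (adjusted p = 0.00293). The interaction was -4.34 ± 0.86 (adjusted p = 0.136). With few reads outside the GSK126 group, it was -4.52 with a pseudocount of 0.5 and -3.53 with 5.

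**Figure D4:**
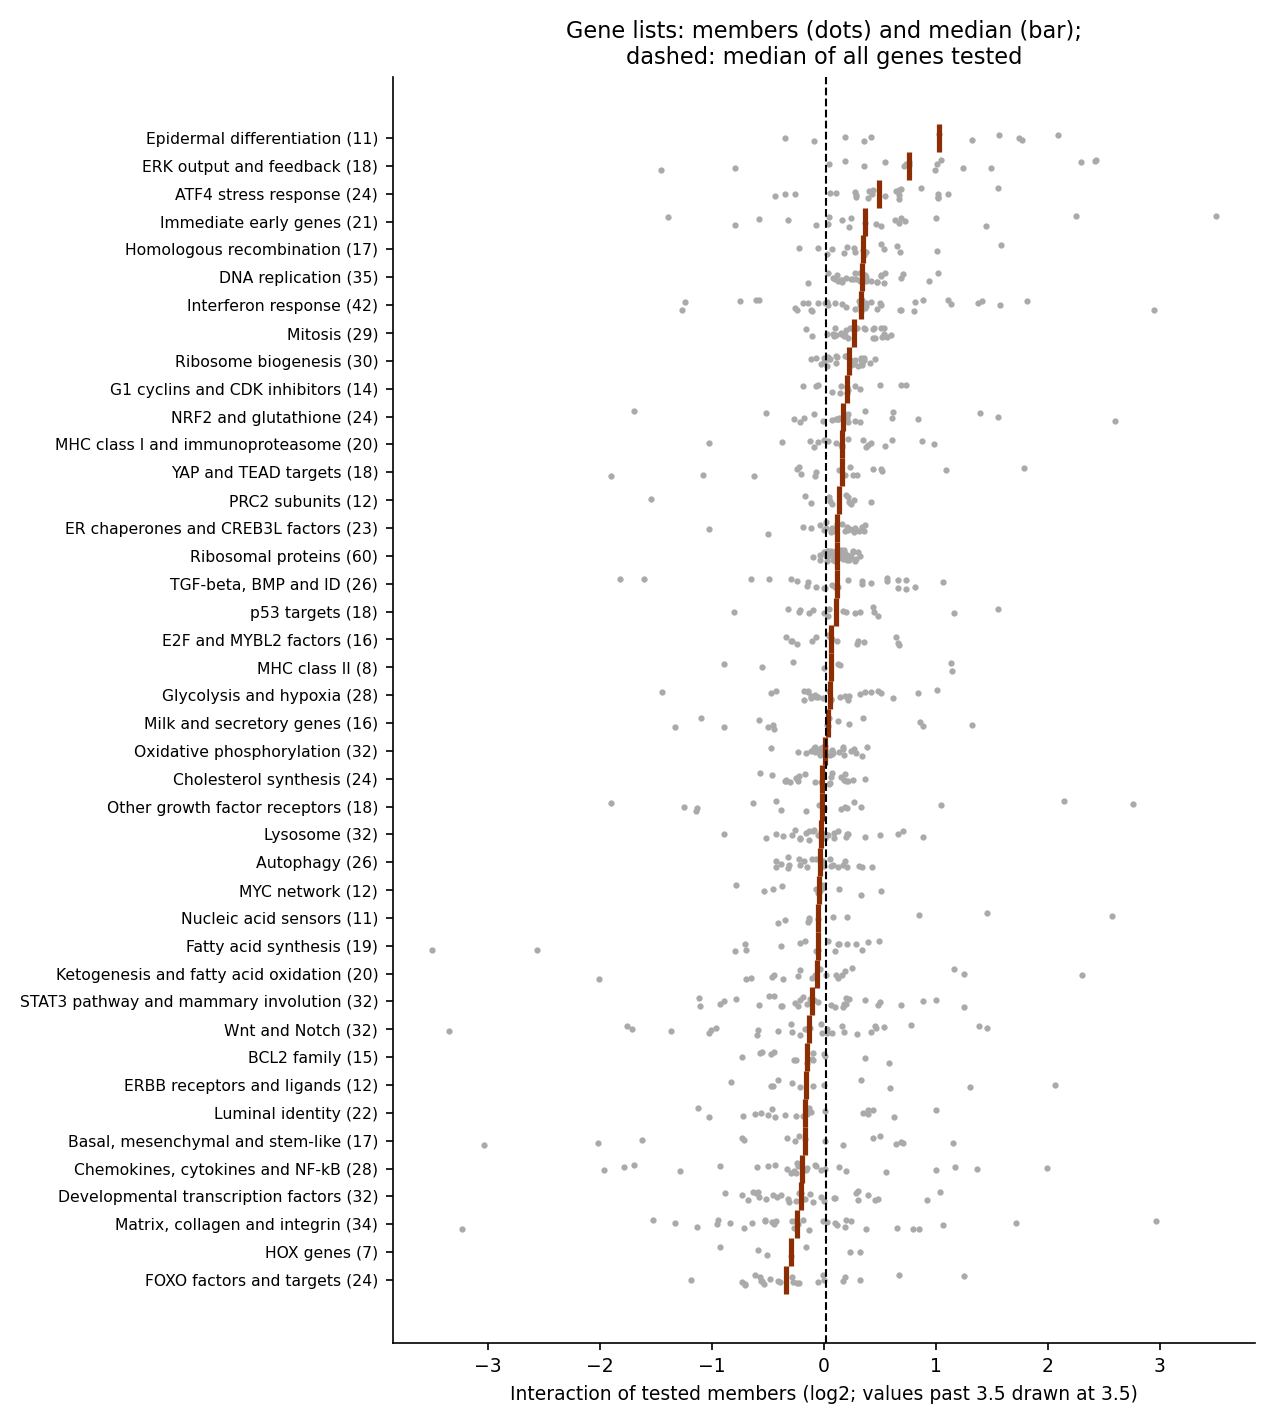
Interaction (log2) of the tested members of each gene list (grey dots, one per gene) with the list median (bar) and the median of all genes tested (dashed line, 0.02). List medians run from 1.03 for epidermal differentiation to -0.34 for FOXO factors and targets (0.53 and -0.84 with spike-in scaling), and members of each list spread to both sides of 0 or close to it.

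For genes of the cell cycle, which moved strongly with lapatinib, list medians of the interaction were small beside the lapatinib changes. All 35 DNA replication genes fell with lapatinib alone (14.3% of all genes) and 34 fell on top of GSK126 (9.71% of all genes), with medians of -1.73 on top of GSK126 and -1.98 alone. Their interactions had a median of 0.34 (-0.16 with spike-in scaling), with 34 of 35 above 0, 6 above the additive level at an unadjusted p under 0.05 (2.58% of all genes) and none called, and 20 had a 95% interval within 1 of 0. MCM10, a replication initiation factor, had the smallest p of the list (1.02 ± 0.26, adjusted p = 0.315). RRM2, a subunit of ribonucleotide reductase, had 648, 646 and 580.2 normalized reads with both drugs, 4774, 8182 and 7641 with GSK126, 651, 615 and 631 with lapatinib and 8572, 10295 and 9519 with DMSO. The libraries fell into a low pair of groups with lapatinib and a high pair without it, and the interaction was 0.48 ± 0.25 (adjusted p = 0.909). All 29 mitosis genes fell in both settings (9.71% of all genes on top of GSK126 and 14.3% with lapatinib alone). Their median interaction was 0.27 (-0.23 with spike-in scaling), with 27 above 0 (52.6% of all genes). Of the 29, 16 had a 95% interval within 1 of 0 (49.6% of all genes). The proliferation marker MKI67 had 0.09 ± 0.23 (95% interval -0.40 to 0.58). The CDK inhibitor CDKN1A had 0.32 ± 0.30 (adjusted p = 0.994).

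Most interferon response genes were raised by GSK126: 30 of 42 tested members rose and 1 fell with GSK126 alone (10.7% and 3.93% of all genes), and 34 rose with both drugs against lapatinib (11.5% of all genes). Their median interaction was 0.33 (-0.28 with spike-in scaling and 0.20 without DMSO library 3), with 3 above and 1 below the additive level at an unadjusted p under 0.05 (2.58% and 3.31% of all genes) and none called. OAS1, a sensor of double-stranded RNA, had 896, 864 and 929 normalized reads with both drugs, 133, 222 and 291 with GSK126, 80.3, 101 and 90.1 with lapatinib and 55.2, 42.5 and 64 with DMSO. The both-drug libraries stood far above the rest, and the interaction was 1.37 ± 0.37 (adjusted p = 0.34). The interferon factor IRF1 had 0.50 ± 0.23 (adjusted p = 0.852). The immunoproteasome subunit PSMB8 averaged 1975 ± 257 reads with both drugs, 2239 ± 445 with GSK126, 116 ± 17.3 with lapatinib and 146 ± 14 with DMSO, an interaction of 0.17 ± 0.26. MHC class I and immunoproteasome genes had a median of 0.16 over 20 tested members (-0.35 with spike-in scaling). Developmental transcription factors, typical PRC2 targets, had a median of -0.21 over 32 tested of 53 measured members (-0.72 with spike-in scaling and -0.081 without GSK126 + lapatinib library 3), with none at an unadjusted p under 0.05.

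BMF, a BCL2-family protein that promotes cell death, was raised by each drug and lay near the additive level with both. It had 4995, 4309 and 4101 normalized reads with both drugs, 1383, 1996 and 2510.3 with GSK126, 1054, 978 and 978 with lapatinib and 319.9, 515 and 349 with DMSO. No groups overlapped, and 4452 reads were observed against 4947 under addition (interaction -0.15 ± 0.31, 95% interval -0.82 to 0.52). Among the drug targets, EZH2 had 505, 583 and 569.6 reads with both drugs, 1202, 1542 and 1407 with GSK126, 463, 437 and 494 with lapatinib and 1533, 1562 and 1553 with DMSO. Its level followed lapatinib, which lowered it with and without GSK126, and its interaction was 0.42 ± 0.19 (unadjusted p = 0.0459, limma adjusted p = 0.827). ERBB2 averaged 172335 reads with both drugs, 120442 with GSK126, 297566 with lapatinib and 154286 with DMSO. It rose with lapatinib alone by 0.95 ± 0.20 (adjusted p = 0.00399) and gave 0.54 ± 0.20 on top of GSK126 (adjusted p = 0.0793), but the difference between these, -0.41 ± 0.28, was not called (adjusted p = 0.968). The receptors ERBB3 and EGFR had -0.21 ± 0.25 and -0.10 ± 0.48, STAT3 -0.19 ± 0.18 and MYC 0.51 ± 0.58, none called. MYC had 1109.5 reads in GSK126 library 1, against 4653 and 4277 in the other GSK126 libraries.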

How the data were processed

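Messenger RNA was measured in 12 libraries of SKBR3 cells, 3 in each of 4 groups set by the labels. Per the submitters' processing notes, the authors used STAR, DESeq2 and the human build hg19, with no versions given; the counter, annotation, strand and filters are not given in the sources used here. Each deposited value is a signal, the read count of a gene divided by the authors' size factor for that library. In every library 100% of values were whole multiples of a single step (within 0.01 read), which gave back the reads. Symbols turned into dates (27) are not named. Genes that overlap or belong to multigene families may share reads.

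Interactions were tested on log2(value + 1) with limma 3.58.1 (R 4.3.3), fitting group means to all 12 libraries (8 residual degrees of freedom), a trended prior, and adjustment of p (Benjamini-Hochberg) across every gene reaching 10 in 3 or more libraries. Spike-ins (86) were left out. The level under addition is the group geometric means combined on that scale. Changes are log2 ± SE, levels are normalized reads, and a fold change near 0 depends on the pseudocount. edgeR 4.0.16 and DESeq2 1.42.0 on the recovered reads were alternatives, with those in the closing section. The procedure was also run on simulated counts. These gave each gene the same dispersion in all groups, so they do not reflect the wider spread of the GSK126 libraries.

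The members and the 46 gene lists were chosen with earlier results of these data known. Named genes are the called genes, fixed genes (EZH2, ERBB2, ERBB3, EGFR, CCND1, MYC, DUSP6, EGR1, FOS, BMF, STAT3, IRF1, PSMB8, CDKN1A, MKI67 and RRM2) and, chosen after the values were seen because only 3 genes were called, the 30 of smallest p whose highest group mean reached 50. Other list members named were also chosen after their values were seen. Promoters come from RefSeq on GRCh38.p14, matched by symbol for 37 of 45 named genes.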

Additional observations from a re-analysis of the deposited data

Results flagged for a closer look

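The lapatinib change with GSK126 differed from that without it, by limma's test of the difference, in 3 genes. These were GPX3 (2.61 ± 0.24, 3 of 3 GSK126 + lapatinib libraries above all others), DAPK2 (2.34 ± 0.33) and SLC16A10 (-2.13 ± 0.30), on the log2 scale. The calls of DAPK2 and SLC16A10 were lost in most fits that left out a library.

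Spike-in transcripts, which were left out of the genes tested, took 1.58 ± 0.203% of the reads with both drugs and 0.788 ± 0.488% with GSK126. They took 1.1 ± 0.287% with lapatinib and 0.665 ± 0.0785% with DMSO (mean ± SD, n = 3 libraries). Every library with lapatinib, with or without GSK126, lay above all DMSO libraries. The GSK126 libraries ran from 0.384 to 1.33%. How the amount of spike-in added relates to cell number or RNA is not given in the sources used here. Scaling to the spike-in total left no interaction called.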

How the results depend on the processing

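As reported, 2 genes were above and 1 below the additive level. The counts were the same with pseudocounts of 0.5 and 5, a filter of 50, a mean of 10 in every group, upper quartile scaling and edgeR. No filter, TMM scaling, total count scaling, group-wise weights and a spike-in composition term each gave 1 above and 0 below, the 1 being GPX3. Scaling to the spike-ins gave 0 above and 0 below in limma (167 genes at an unadjusted p under 0.05; GPX3 2.10, adjusted p = 0.932). A constant prior gave 4 and 4, DESeq2 66 and 49, weights per library (from 0.104 for GSK126 library 1 to 8.36 for GSK126 + lapatinib library 2) 1533 and 1751, and a fit without GSK126 libraries 2 and 3 and GSK126 + lapatinib library 1, which share a spike-in composition, 497 and 96. That fit leaves 1 GSK126 library, the one of lowest weight, assumed to vary like the other groups, so it does not test a replicated GSK126 group. The cause of these differences was not tested. Leaving out each library gave 1 to 10 above and 0 to 8 below, the highest without GSK126 library 1. The replicate numbers, entered as a block, gave 1 above and 0 below in limma and in edgeR. Deviations of same-numbered libraries correlated at -0.334 to 0.352 over 18 pairs, and those of differently numbered libraries at -0.483 to 0.44 over 36. These ranges overlap and come from 3 libraries a group, so they do not settle whether the numbers pair the samples.

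Among named genes, 1193 values kept their sign and side of the threshold, 96 passed it only under the alternative, 38 lost it and 21 changed sign, all in genes that were not called. With spike-in scaling these were EZH2 (-0.083), IRF1 (-0.0063), PSMB8 (-0.34), CDKN1A (-0.18), MKI67 (-0.41) and RRM2 (-0.023). With weights per library they were ERBB2 (0.025), EGFR (0.043) and CDKN1A (-0.11). Without those 3 libraries they were EGFR (0.56), BMF (0.23) and MKI67 (-0.31), and with the composition term MYC (-0.026). With a library left out, ERBB3 ran from -0.35 to 0.016, EGFR from -0.49 to 0.29, MYC from -0.16 to 0.88, BMF from -0.38 to 0.046, PSMB8 from -0.0083 to 0.28 and MKI67 from -0.047 to 0.30.

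With 3 libraries a group the median 95% interval of 0.736 to either side limits what the interaction can show, most of all through the spread of the GSK126 libraries, and values near 0 reads depend on the pseudocount and on the shallow first GSK126 + lapatinib library.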

Other observations

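Further genes away from the additive level were chosen after their values were seen. None was called by limma. PHF19, an accessory subunit that helps PRC2 bind chromatin, had 54.8, 34.8 and 57.8 normalized reads with both drugs, 239, 165 and 246 with GSK126, 18.6, 13.8 and 17.8 with lapatinib and 28.2, 18.8 and 31 with DMSO. GSK126 raised it by 3.02 (adjusted p = 2.51e-05) and it fell by 2.13 ± 0.31 on top of GSK126 (adjusted p = 0.000422), an interaction of -1.54 ± 0.43 (adjusted p = 0.384). Of the other 11 tested PRC2 subunits, 1 (EZH2) had an unadjusted interaction p under 0.05 (5.9% of all genes).

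In lipid metabolism, fatty acid synthase (FASN) averaged 46521 ± 5608 reads with both drugs, 64361 ± 14149 with GSK126, 112187 ± 8387 with lapatinib and 95547 ± 23019 with DMSO, an interaction of -0.70 ± 0.30 (adjusted p = 0.806).

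The stress cytokine GDF15 had 535, 528 and 507 reads with both drugs, 113, 187 and 296 with GSK126, 46, 66 and 46.9 with lapatinib and 47.8, 63.2 and 53.4 with DMSO (interaction 1.56 ± 0.42, adjusted p = 0.341). TIMP2, an inhibitor of matrix proteases, averaged 15158 ± 643 reads with both drugs, 9228 ± 1688 with GSK126, 3715 ± 146 with lapatinib and 4030.1 ± 208 with DMSO (interaction 0.85 ± 0.19, adjusted p = 0.263). FGFR1 had the same sign as FGFR4, with an interaction of -1.14 ± 0.31 (adjusted p = 0.341), and 183 ± 7.73 reads with both drugs, 239 ± 21.1 with GSK126, 174 ± 30.1 with lapatinib and 104 ± 27.1 with DMSO.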
